A study of Mus musculus with 12 samples.

Results

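The oxidative phosphorylation genes described here are the subunits of respiratory complexes I to V, read as transcripts in mouse liver. They were taken by symbol alone: names beginning with Nduf plus a letter of A, B, C, S or V and a number, the Sdh subunits A to D, names beginning with Uqcr, Cyc1, names beginning with Cox4 to Cox8, names beginning with Atp5, and the mitochondrially encoded Nd, Co, Cytb and Atp genes, without pseudogene symbols. This gave 89 genes of the 12086 measured, 77 from the nuclear genome and 12 from the mitochondrial genome. The nuclear genes comprised 36 for complex I, 4 for complex II, 9 for complex III, 11 for complex IV and 17 for complex V. The mitochondrial genes comprised 6 for complex I, 1 for complex III, 3 for complex IV and 2 for complex V. All 89 passed the filter on low values. Another 13 symbols that match the names, among them Cox4i2, Cox6a2, Cox7a1, Cox8b and Cox8c, tissue-restricted forms of complex IV subunits, and the mitochondrial mt-Nd4l, had no row among those genes and were not analysed here. Symbols are the older ones (Atp5a1, Atp5b, Atp5g1), and they class some genes loosely. Ndufa4 is named as a complex I subunit but is known to sit in complex IV. Atp5s is a coupling and assembly factor of complex V, and Cox7a2l, counted here in complex IV, is a supercomplex factor.

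Oxidative phosphorylation passes electrons from NADH (complex I) or succinate (complex II) through coenzyme Q, complex III and cytochrome c to oxygen at complex IV, and the proton gradient so made drives ATP synthesis by complex V. The subunits come from separate genomes: mitochondrial DNA encodes the hydrophobic cores of complexes I, III, IV and V from long polycistronic transcripts, and nuclear genes encode all other subunits, including the whole of complex II. In liver this machinery oxidises the NADH and FADH2 made by fatty acid oxidation and the TCA cycle and supplies the ATP for gluconeogenesis and urea synthesis.

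Livers came from wild type C57BL/6 male mice at postnatal day 84. Their mothers had eaten either RM1 chow, of which 3% was lipid and 7% simple sugars, or an obesogenic pellet of 20% lipid and 10% simple sugars offered beside sweetened condensed milk (35 dams in all), and litters were set to 6 pups on day 3. From weaning on day 21 the sons ate the chow or the obesogenic diet. In the group names the first letter is the diet of the mother and the second that of the son: CC is chow for both, CO obesogenic for the son only, OC obesogenic for the mother only, and OO obesogenic for both. All comparisons rest on 11 libraries, 3 of CC, 2 of CO, 3 of OC and 3 of OO. The labels list 12 samples, and 1 of the CO samples was not analysed here. The litter each son came from was not given in the sources used here, so p-values measure the spread between these libraries. Libraries are called by group and a number (CC.0 to OO.2) that pairs nothing across groups.

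Recovered depth ran from 3976159 reads in OO.1 to 27837608 in OO.0. The liver label fitted its markers: 5 of the 6 hepatocyte genes listed were measured, and Apoa1, Ttr, Trf, Cps1 and Fgb summed to a value between 32615 and 50315 in every library. This sum hides a split in Cps1. Its values ran from 8392 to 12532 over the CC libraries and from 2745 to 7468 over the rest. For Apoa1, Ttr, Trf and Fgb the CC libraries overlapped the rest. Whether the split in Cps1 bears on the members was not tested. Some libraries stood apart. Exocrine pancreas transcripts (11 of 12 listed measured) summed to 3954 in CO.1 and 6212 in OC.0, against 7.46 to 927 in the other libraries, with Cela3b listed at 0 in CC.0, CC.2 and OO.2. The 6 acute phase transcripts summed to 26406 in CO.1 and 17749.9 in OC.1, against 2138 to 4092 elsewhere. Library OO.1 had the lowest depth, a Lars2 value of 142071 against 337 to 10222 elsewhere, and the highest 12S ribosomal RNA (mt-Rnr1, 11993 against 5014 to 7268). The 16S ribosomal RNA mt-Rnr2 was listed at 0 in every CO and OO library, against 43306 to 51009 in CC and OC. This split follows the son's diet exactly, so processing and diet cannot be told apart in it. Any difference in processing that follows the son's diet would also enter the comparisons of that diet, and this was not tested. The gene mt-Rnr2 is left out of what follows.

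Values are on the authors' scale, counts per gene over a factor of the library. The 12 mitochondrially encoded members summed to 29473 to 42063 per library, which is 2.83% to 4.10% of all values, and the 77 nuclear members to 8362 to 11645, or 0.837% to 1.13%. Per kilobase of merged exon in GENCODE M21, the most abundant nuclear members were the complex V catalytic subunits Atp5a1 (mean value per kilobase over 11 libraries 348) and Atp5b (291), followed by the complex IV subunits Cox8a (254) and Cox6a1 (253). In complex II the flavoprotein Sdha (122) and the membrane anchor Sdhd (140.2) had the higher levels per kilobase and the iron-sulfur subunit Sdhb (64.8) and the anchor Sdhc (41.1) the lower ones. The lowest of all was Atp5s (2.76). The mitochondrial members spanned 155 for mt-Nd6 to 10927 for mt-Co3 per kilobase. These per-length levels are approximate, since the authors' annotation was not given in the sources used here.

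On the obesogenic diet after a chow-fed mother (CO against CC), 1 of the 89 members passed the test, Sdhd, which fell, beside 1.79% of all genes (limma on log2(value + 0.5), Benjamini-Hochberg over 12086 genes, adjusted p under 0.05). The other members stood mostly on the lower side without passing: 73 of 77 nuclear members had a negative log2 difference, with a median of -0.24 (-15.4%), where the median of all genes was within 0.01 of 0. By complex the nuclear medians were -0.21 for complex I, -0.32 for complex II, -0.28 for complex III, -0.23 for complex IV and -0.32 for complex V. An unadjusted limma p under 0.05 was found for 29 of 89 members, all of them lower (26 nuclear and 3 mitochondrial), beside 16.8% of all genes in either direction. Both CO libraries lay below all 3 CC libraries for 47 of the 89 members, which stands beside 17.9% of all genes, and above them for 1, beside 17% of all genes. Subunits of a complex vary together between libraries, so these counts are not 47 separate observations. The median rests unevenly on the CO libraries: without CO.0 it was -0.39 and without CO.1 it was -0.12. In bulk tissue, fewer cells that carry a transcript and less of it per cell cannot be told apart.

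**Figure D1:**
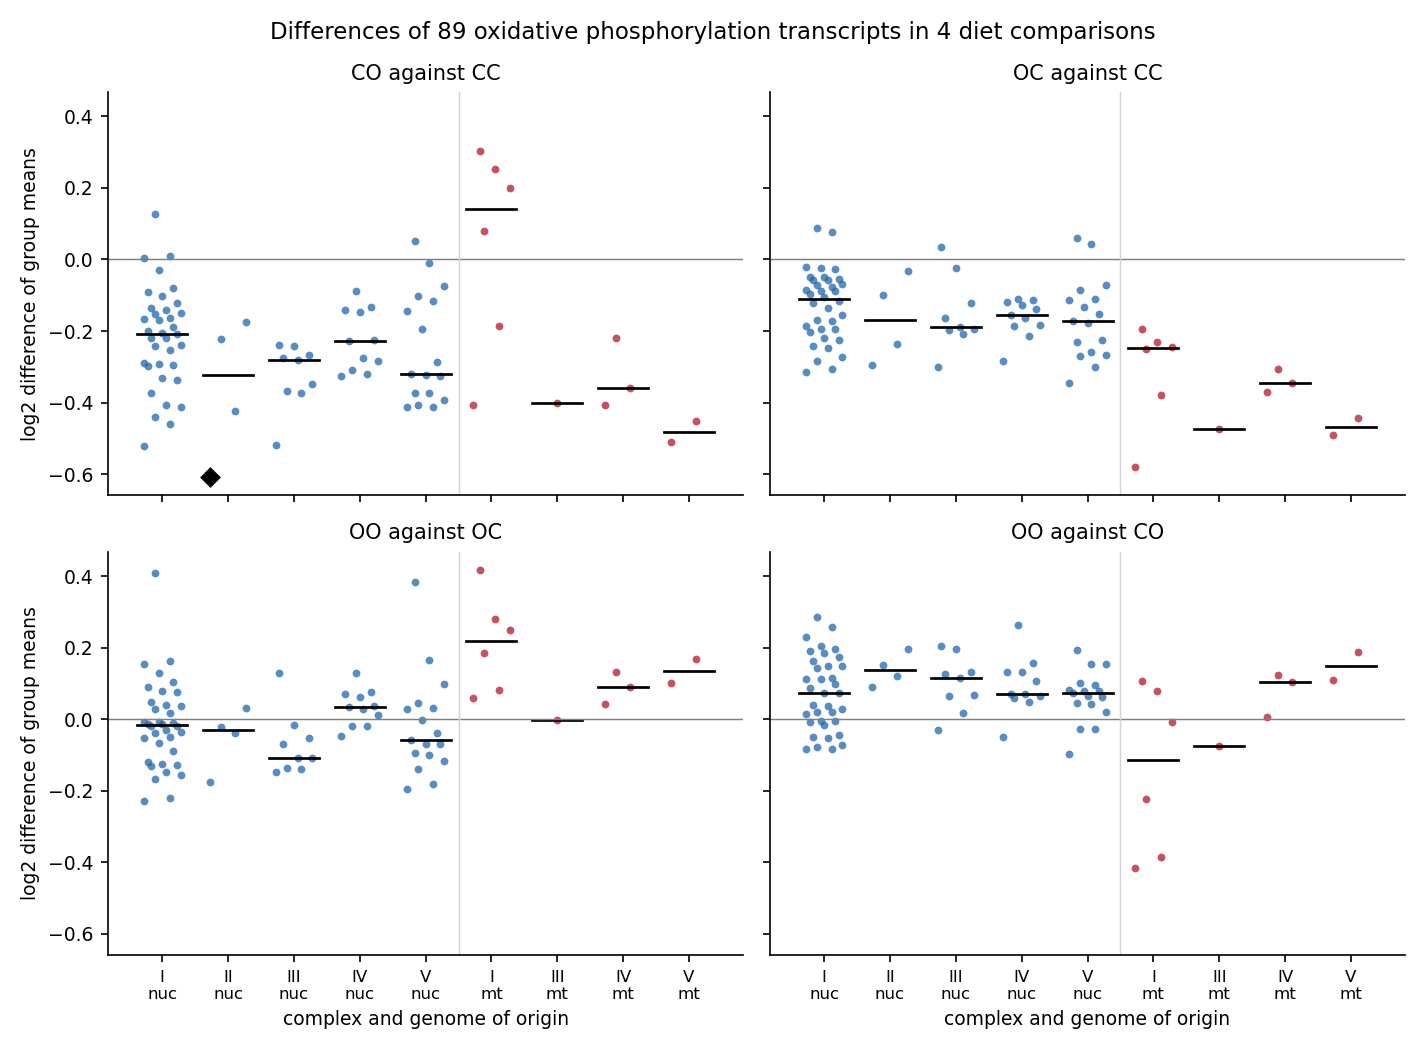
Log2 difference of group means (y axis) for each of the 89 members, by complex and genome of origin (x axis, nuc nuclear, mt mitochondrial), in 4 comparisons. Points are genes, black bars are medians, and the black diamond is the only member past the threshold, Sdhd at -0.61 in CO against CC. Most nuclear points lie below 0 in CO against CC and in OC against CC and on both sides of 0 in OO against OC.

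Sdhd encodes the small subunit of complex II that anchors the enzyme in the inner membrane and helps bind coenzyme Q. Its values were 223, 202 and 201 in CC and 139 and 134 in CO. They were 179, 161 and 191 in OC and 158, 144 and 167 in OO. The CC libraries were the highest and the CO libraries the lowest, OC and OO lay between them, and OC overlapped OO. In CO against CC Sdhd fell by 0.61 on the log2 scale (SE 0.12, 1.52-fold lower, limma adjusted p = 0.0339), from 208 ± 12.3 (SD, n = 3) to 136 ± 3.13 (SD, n = 2). Averaged over both maternal diets it fell by 0.39 with the son's obesogenic diet (SE 0.08, limma adjusted p = 0.0209). After an obesogenic mother alone the difference was -0.18 (OO against OC, SE 0.11, limma adjusted p = 0.76). The call in CO against CC was lost when CC.0, CC.2, CO.0 or CO.1 was left out, with limma adjusted p-values of 0.0737 without CO.0 to 0.164 without CO.1, while the size stayed between -0.63 and -0.56. Leaving out CC.0, CC.2 or CO.1 also lowered the number of all genes called, from 216 to 23, 19 and 29. With only CC and CO in the fit the limma adjusted p was 0.0728.

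The Sdhd promoter is shown because Sdhd alone passed the test, beside that of Ndufb6, the complex I member with the smallest p in the same comparison, and those of the other members that share its ERR match, Atp5g3 and Ndufb4. Each runs from 250 bases before to 50 after the RefSeq transcription start (GRCm38.p6), in the direction of transcription. The locations are chr9:50603800-50604099, minus strand for Sdhd, chr4:40279372-40279671, minus strand for Ndufb6, chr2:73911277-73911576, minus strand for Atp5g3 and chr16:37654319-37654618, minus strand for Ndufb4. Capitals mark matches, on either strand, to an NRF1-like motif (GCGC and TGCGC with 1 free base between them), an ETS core (CCGGAAG), an ERR site (TNAAGGTCA), a YY1 motif (AANATGGC) or a CRE (TGACGTCA).
Sdhd: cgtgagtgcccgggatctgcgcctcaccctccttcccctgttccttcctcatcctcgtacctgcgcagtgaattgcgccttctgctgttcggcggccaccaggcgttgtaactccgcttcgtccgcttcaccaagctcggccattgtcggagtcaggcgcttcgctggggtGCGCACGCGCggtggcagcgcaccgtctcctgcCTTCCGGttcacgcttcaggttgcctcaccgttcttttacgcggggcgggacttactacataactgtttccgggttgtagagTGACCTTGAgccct
Ndufb6: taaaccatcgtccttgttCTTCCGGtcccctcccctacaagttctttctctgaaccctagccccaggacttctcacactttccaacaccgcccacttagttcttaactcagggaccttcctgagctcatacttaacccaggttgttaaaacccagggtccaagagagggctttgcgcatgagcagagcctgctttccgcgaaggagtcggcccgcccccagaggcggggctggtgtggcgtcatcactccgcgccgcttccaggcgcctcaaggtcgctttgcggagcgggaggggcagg
Atp5g3: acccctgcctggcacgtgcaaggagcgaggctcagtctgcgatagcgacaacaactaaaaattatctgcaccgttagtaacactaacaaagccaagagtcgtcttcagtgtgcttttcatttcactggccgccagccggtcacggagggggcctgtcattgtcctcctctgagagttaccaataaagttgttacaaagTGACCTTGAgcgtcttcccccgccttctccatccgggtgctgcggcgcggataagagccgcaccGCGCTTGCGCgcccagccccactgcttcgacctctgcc
Ndufb4: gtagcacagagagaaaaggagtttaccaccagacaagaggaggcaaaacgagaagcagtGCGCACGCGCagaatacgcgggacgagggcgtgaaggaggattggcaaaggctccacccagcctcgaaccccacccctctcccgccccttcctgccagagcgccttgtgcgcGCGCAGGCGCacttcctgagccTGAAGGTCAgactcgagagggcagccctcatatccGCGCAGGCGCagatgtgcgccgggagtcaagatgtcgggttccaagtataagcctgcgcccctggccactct
The Sdhd promoter held an NRF1-like, an ETS and an ERR match, that of Ndufb6 an ETS match, and those of Atp5g3 and Ndufb4 an ERR and at least 1 NRF1-like match. NRF1, GABP (an ETS factor), the estrogen-related receptors and YY1 are known activators of nuclear respiratory genes. Of the 77 nuclear members, 64 were matched by symbol to the RefSeq table, with 69 promoters, and Cyc1 was not among them. The NRF1-like motif stood in 26.1% of their promoters against 4.603% of the 32851 promoters in the table, and its form with A as the free base, which is counted in that share, in 7.25% against 0.971%. The ETS core stood in 23.2% against 8.86%, the YY1 motif in 24.6% against 6.05%, the CRE in 5.80% against 1.79% and the ERR site in 4.35% against 1.28%. The 32851 promoters are not limited to genes measured in these livers, so shares among expressed genes in general are not given. These are letter matches in a window of 300 bases, and binding was not measured. The members with an ERR match other than Sdhd did not pass the test: in CO against CC the log2 difference was -0.37 for Atp5g3 (limma adjusted p = 0.247) and -0.14 for Ndufb4 (limma adjusted p = 0.781).

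Among the other complex II subunits, all lower in CO than in CC on average, none passed the test. The catalytic flavoprotein Sdha had values of 528, 527 and 502 in CC and 535 and 395 in CO, and the iron-sulfur subunit Sdhb 171, 159 and 179.7 in CC and 162 and 98.7 in CO. For both genes CO.1 was below every CC library, while CO.0 was above them for Sdha and among them for Sdhb. For the other anchor, Sdhc, CO.1 was again low and CO.0 among the CC libraries (CC 136, 145 and 142, CO 142 and 103). Of the 4 complex II genes, Sdhd was the one with both CO libraries below CC, a contrast noticed in the values and given no test. Complex II has no mitochondrially encoded subunit.

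In complex III the smallest p in CO against CC was that of Cyc1, cytochrome c1, which hands electrons to cytochrome c. Its values were 142, 136 and 141 in CC, 108 and 87.8 in CO, 111, 106 and 123 in OC and 109.6, 88.2 and 109 in OO. Every library of CO, OC and OO lay below every CC library. The difference in CO against CC was -0.52 (SE 0.14) and missed the threshold (limma adjusted p = 0.0843). DESeq2 on the recovered reads called it (adjusted p = 0.0384), where it called 3.77% of all genes. The difference in OC against CC was -0.30 and in OO against OC -0.15 (limma adjusted p = 0.923 and 0.828). The accessory subunit Uqcr10 stood at 101 ± 8.13 in CC (SD, n = 3) and 77.9 ± 9.55 in CO (SD, n = 2), with CO below CC in every library. The core protein Uqcrc2, the most abundant by value, stood at 261 ± 10.99 and 216 ± 35.6 in the same groups, and the accessory Uqcr11 at 131 ± 3.57 and 108 ± 12.4. All 9 nuclear complex III members were lower on average in CO than in CC, by -0.24 to -0.52, 5 of them with an unadjusted limma p under 0.05 (beside 16.8% of all genes), and 0 passed the adjusted threshold.

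Complex I, the NADH dehydrogenase, has many accessory subunits in its membrane arm, and 2 of these had the smallest p in CO against CC. Of its 36 nuclear members 33 were lower on average in CO than in CC, 11 with an unadjusted limma p under 0.05 (beside 16.8% of all genes) and 0 past the adjusted threshold. Ndufb6 had values of 59.1, 62.5 and 58.7 in CC, 49.8 and 34.9 in CO, 44.1, 48.8 and 53.0 in OC and 47.6, 46.7 and 50.3 in OO, so that the CC libraries lay above all others. Its difference in CO against CC was -0.52 (SE 0.15, limma adjusted p = 0.102), and it passed when CO.0 was left out (limma adjusted p = 0.0323). Ndufb5, another membrane-arm subunit, had 84.3, 85.6 and 89.7 in CC and 73.2 and 64.0 in CO (limma adjusted p = 0.128). Ndufa4, the most abundant by value of the genes with a complex I name, had 250.1, 259 and 237 in CC and 215 and 163 in CO, again without overlap. Against this, Ndufb3, also of the membrane arm, stood on the other side, with 36.6, 37.96 and 39.0 in CC and 43.0 and 39.7 in CO, the only member with both CO libraries above CC. It had 26.7, 35.1 and 34.6 in OC and 46.5, 33.7 and 49.0 in OO, where it had the smallest unadjusted p of any member in OO against OC (difference 0.41, SE 0.15, limma adjusted p = 0.528), and OO.1 lay among the OC libraries. Ndufv3, an accessory subunit of the NADH-oxidising module, had means of 63.3 ± 6.82 in OC and 54.0 ± 6.38 in OO (SD, n = 3), and Ndufc1, a small accessory subunit, 29.5 ± 0.754 in CC and 24.8 ± 1.78 in OC.

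**Figure D2:**
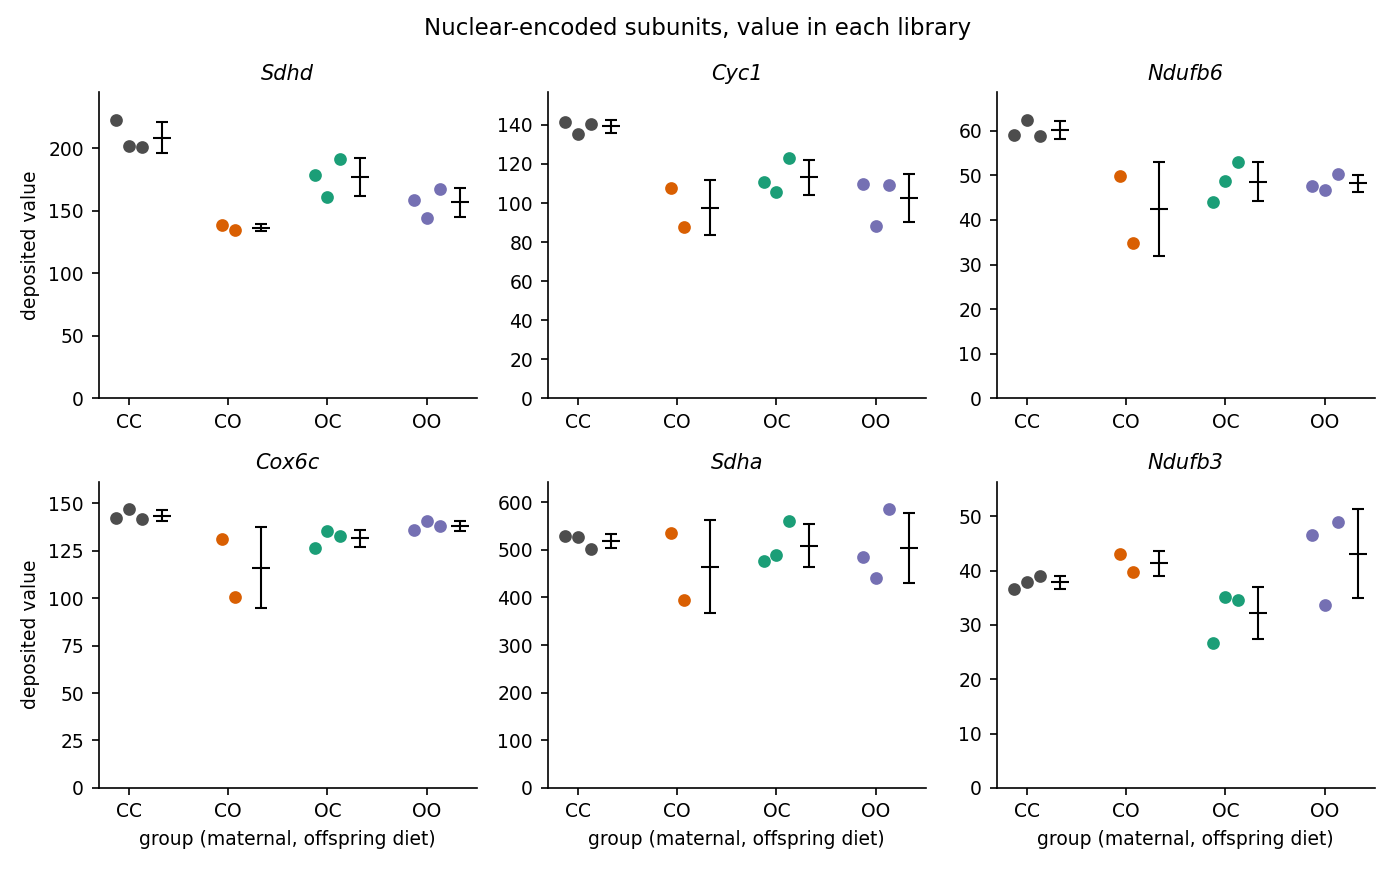
Deposited value (y axis) of 6 nuclear-encoded subunits in each library, by group (x axis). Points are libraries, and the black bars are the mean and SD of the group. For Sdhd, Cyc1 and Ndufb6 the CC libraries lie above all others, while for Sdha CO.0 (535) lies above the CC libraries and CO.1 (395) below them.

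In complex IV all 11 nuclear members were lower on average in CO than in CC and 0 passed. Several of its subunits exist as a broadly expressed form and a form restricted to certain tissues. A list of such isoforms, which also holds Ndufa4 and complex V genes, had 12 of its 21 genes measured. The regulatory subunit Cox4i1 had values of 326, 315 and 325 in CC, 292 and 258 in CO, 265, 301 and 332 in OC and 286, 289.8 and 289 in OO, so that CO and OO lay below CC. The liver form Cox6a1 had a log2 difference of -0.28 in CO against CC, Cox6b1 -0.15, Cox7a2 -0.14, Cox7b -0.33, Cox8a -0.22 and Cox7a2l, a supercomplex factor, -0.09. Cox6c, a small structural subunit, had 142, 147 and 142 in CC, 131 and 101 in CO, 126, 135 and 133 in OC and 136, 141 and 138 in OO. Its limma adjusted p was 0.214 in CO against CC, and its OO libraries lay above both CO libraries. Cox7c, another small subunit, had differences of -0.13 in CO against CC and 0.13 in OO against OC. Unadjusted limma p-values were under 0.05 in CO against CC for 2 of 11, a share near that of all genes (16.8%). Skeletal muscle transcripts summed to at most 126 in any library (7 of 10 listed measured).

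In complex V, 16 of 17 nuclear members were lower on average in CO than in CC, 7 with an unadjusted limma p under 0.05 (beside 16.8% of all genes), and 0 passed the adjusted threshold. The catalytic subunit Atp5b had values of 1421, 1360.2 and 1451 in CC, 1251 and 898 in CO, 1191, 1227 and 1398 in OC and 1196, 1023 and 1147 in OO, so that both CO and all OO libraries lay below CC. Atp5o, the subunit that joins the catalytic head to the stalk, had 145, 136 and 142 in CC and 119 and 99.2 in CO, with OC and OO from 109 to 124, all below CC. The stalk subunit Atp5h had 135, 118 and 122 in CC and 106 and 85.4 in CO (limma adjusted p = 0.129, and 0.121 for Atp5o). The genes Atp5g1, Atp5g2 and Atp5g3 encode the same mature protein, the ring that turns with proton flow, and differed in level: means in CC were 68.5 ± 6.44, 12.1 ± 0.7 and 312 ± 26.2 (SD, n = 3). Their log2 differences in CO against CC were -0.41, -0.19 and -0.37. Of the 50-base stretches in Atp5g2 transcripts, 38.3% occur in another annotated transcript, so its low value is uncertain. The stalk subunit Atp5f1 had a difference of -0.32, and the dimer subunit Atp5k -0.07. Atp5s, at a mean value of 5.62 over all libraries, had differences of 0.05 in CO against CC and 0.38 in OO against OC, neither past the threshold.

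After an obesogenic mother, values with the son on either diet were closer, a contrast that rests in part on CO.1 and OC.0. In OO against OC 0 members passed, beside 0.165% of all genes, and 1 (Ndufb3) had an unadjusted limma p under 0.05, beside 8.01%. The nuclear median was -0.02, with 29 members above 0 and 48 below. By edgeR, DESeq2 and voom 0 members passed as well. Groups did not overlap for 1 member in the lower direction (beside 6.14% of all genes) and 2 in the higher (beside 6.6%). Whether this differs from CO against CC was tested as the interaction of the diets, in which 0 members passed, beside 0.0331% of all genes, and 7 had an unadjusted limma p under 0.05, beside 4.56%. The nuclear median of the interaction was 0.24, with 71 of 77 above 0. The libraries enter it unevenly. Relative to the CC mean, the median nuclear log2 level was -0.12 in CO.0 and -0.39 in CO.1. It was -0.28 in OC.0, -0.08 in OC.1 and -0.07 in OC.2, and -0.17, -0.25 and -0.07 in the OO libraries. Averaged over the mothers' diets, the son's diet gave 1 call, Sdhd, beside 3.96% of all genes, and 21 unadjusted limma p-values under 0.05, beside 19.4%, with a nuclear median of -0.12. That call was lost without CC.0, CO.1 or OC.2 (limma adjusted p = 0.0614, 0.074 and 0.0507).

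With the mother's diet alone (OC against CC) 0 members passed, beside 0% of all genes, and 10 had an unadjusted limma p under 0.05, beside 5.26%. The nuclear median was -0.15, with 72 of 77 below 0, and it was -0.08 without OC.0. The count by edgeR, DESeq2 and voom was also 0, here, in OO against CO, for the average maternal diet and for the interaction. All 3 OC libraries lay below all 3 CC libraries for 34 of 89 members, beside 6.14% of all genes, and above them for 0, beside 5.32%. CO against CC and OC against CC share the CC libraries, and for Ndufb6, Cyc1 and Atp5o their differences were -0.52 and -0.31, -0.52 and -0.30, and -0.37 and -0.27. In OO against CO 0 members passed, beside 0.0414% of all genes, and 1 had an unadjusted limma p under 0.05, beside 5.92%. There the nuclear median was 0.08, which became -0.060 with CO.1 left out and 0.23 with CO.0 left out, with no overlap for 1 member in the lower direction (beside 9.48% of all genes) and 5 in the higher (beside 10.5%). The average maternal diet gave 0 calls among members, beside 0.0331% of all genes, and 0 unadjusted limma p-values under 0.05, beside 6.13%.

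Library by library, the nuclear members did not sit evenly within groups. Relative to the CC mean, the median nuclear log2 level lay between -0.03 and 0.02 in the CC libraries. It was -0.12 in CO.0 and -0.39 in CO.1. In OC it was -0.28 in OC.0, -0.08 in OC.1 and -0.07 in OC.2, and in OO -0.17, -0.25 and -0.07. In each of CO, OC and OO, the nuclear medians of all 5 complexes were lowest in the same library, CO.1, OC.0 and OO.1. CO.1 was the lowest of the 11 libraries for 50 of 77 nuclear members, OC.0 for 18 and OO.1 for 7, where these libraries were lowest for 13.5%, 10.1% and 11.2% of all genes. The 3 lowest values were exactly these 3 libraries for 29 nuclear members, or 37.7%, against 1.75% of all genes. This grouping was noticed in the values and has no test. CO.1 and OC.0 are the libraries with the most pancreas transcripts (sums of 3954 and 6212). CO.1 also had high acute phase transcripts, and OO.1 had the lowest depth and the high Lars2. CC.1 had a lower pancreas sum of 927 and a nuclear median of -0.03. OC.1 had an acute phase sum of 17749.9 and a nuclear median of -0.08. These are single libraries, and the part of pancreas transcripts, acute phase transcripts, depth and Lars2 in the result was not tested. In the libraries other than CO.1, OC.0 and OO.1 the nuclear medians of CO, OC and OO ran from -0.17 to -0.07, below every CC library.

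**Figure D3:**
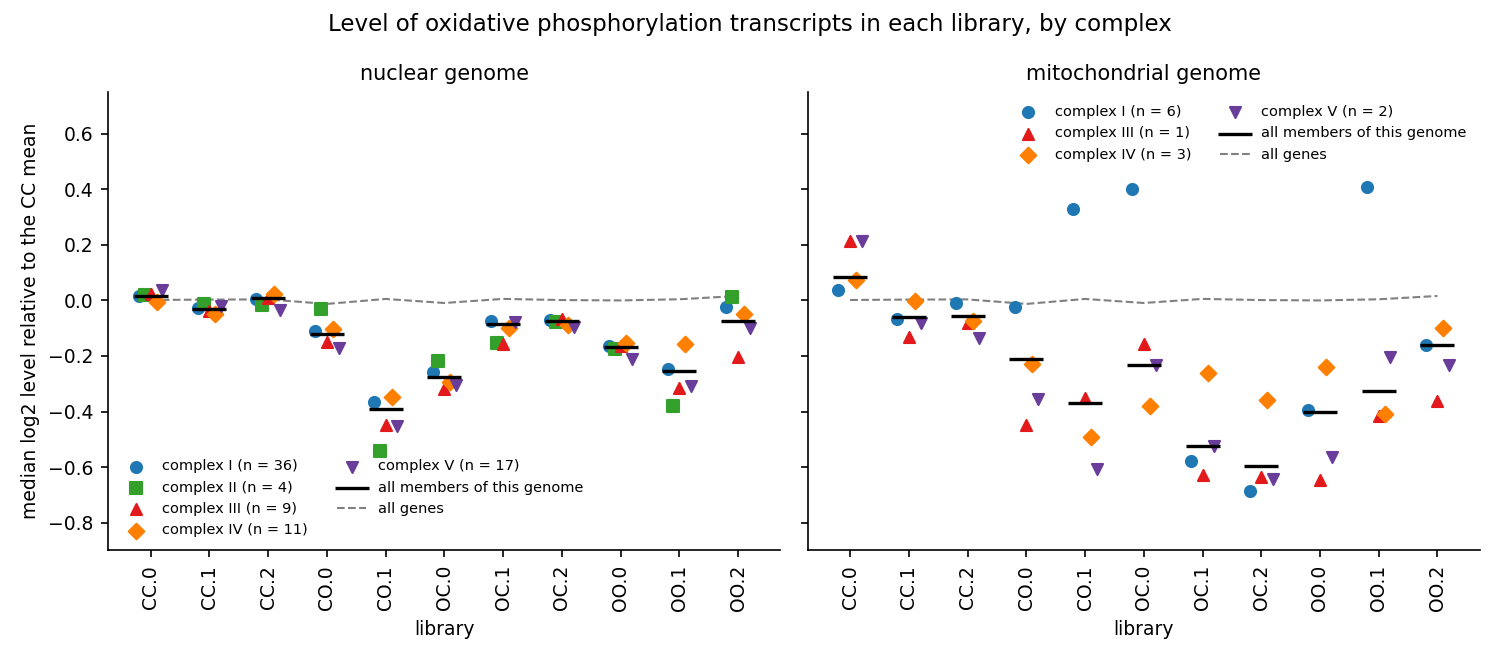
Median log2 level of the members of each complex relative to the CC mean (y axis) in each library (x axis), for nuclear members on the left and mitochondrial members on the right. Symbols are complexes, black bars are the median of all members of that genome, and the dashed line is the median of all genes. CO.1, OC.0 and OO.1 are the lowest libraries for the nuclear genes (-0.39, -0.28 and -0.25), while their mitochondrial complex I median is the highest.

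The mitochondrially encoded members gave 0 calls in any of the 7 comparisons by limma, with 3 unadjusted p-values under 0.05 in CO against CC (beside 16.8% of all genes) and 4 in OC against CC (beside 5.26%). In CO against CC their median log2 difference was -0.29 (8 of 12 below 0), in OC against CC -0.36 (12 of 12 below 0), in OO against OC 0.12 and in OO against CO 0.04. The median in OC against CC was -0.58 without OC.0. For 8 of the 12 all OC libraries lay below all CC libraries, beside 6.14% of all genes, and for 6 both CO libraries did, beside 17.9%.

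Cytochrome b (mt-Cytb), the electron-carrying core of complex III, had values of 2617, 2059 and 2134 in CC, 1653 and 1769.9 in CO, 2025, 1462 and 1452 in OC and 1440.2, 1692 and 1757 in OO. Every library on either obesogenic diet lay below every CC library, with a difference of -0.40 in CO against CC and -0.47 in OC against CC (limma adjusted p = 0.364 and 0.923). The complex IV catalytic subunit mt-Co1 had 16836, 15988 and 15215 in CC, 13315 and 10938 in CO, 12155, 13348 and 12346 in OC and 12471, 11727 and 14932 in OO, again with CC above all others. Its partners mt-Co2, which receives electrons from cytochrome c, and mt-Co3 had differences of -0.36 and -0.22 in CO against CC and -0.37 and -0.30 in OC against CC. The complex V proton channel subunit mt-Atp6 had 2795 ± 308 in CC (SD, n = 3), 2043 ± 263 in CO (SD, n = 2) and 2059.6 ± 289 in OC, and mt-Atp8, whose gene overlaps it by 43 bases on the same strand, 332 ± 53.4, 231 ± 27.6 and 236 ± 39.6.

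The complex I core genes divided. mt-Nd1, of the membrane arm near the coenzyme Q site, had 2393, 1898 and 2034 in CC, 1529.7 and 1635 in CO, 1581, 1399 and 1250.4 in OC and 1646, 1570.0 and 1799 in OO, with CC the highest. mt-Nd4, a proton-pumping subunit, instead had 899.7, 799 and 816 in CC, 836 and 1276 in CO, 1424, 562 and 488 in OC and 556, 1116 and 747 in OO. Its highest libraries were OC.0, CO.1 and OO.1, the same ones in which the nuclear medians were lowest. The other pumping subunits, mt-Nd2 and mt-Nd5, were also highest there. mt-Nd2 had 807 in CO.1, 758 in OC.0 and 808 in OO.1 against 356 to 583 elsewhere, and mt-Nd5 794, 900.1 and 694 against 300.4 to 553. mt-Nd3 went the other way, with 646, 639.7 and 683, the lowest 3 of its 11 values, against 696 to 1000.1. mt-Nd6, the only member on the opposite strand, had 152 in OO.1 and 96.9 in OC.0 against 51.7 to 82.3 elsewhere. It overlaps mt-Nd5 by 14 bases on opposite strands, and the strand setting was not given in the sources used here, so its reads and antisense reads cannot be told apart. The SEs of mt-Nd4 and mt-Nd5 in CO against CC (0.41 and 0.44) exceeded those of mt-Cytb (0.21) and mt-Nd1 (0.18). The split was noticed in the values and has no test.

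**Figure D4:**
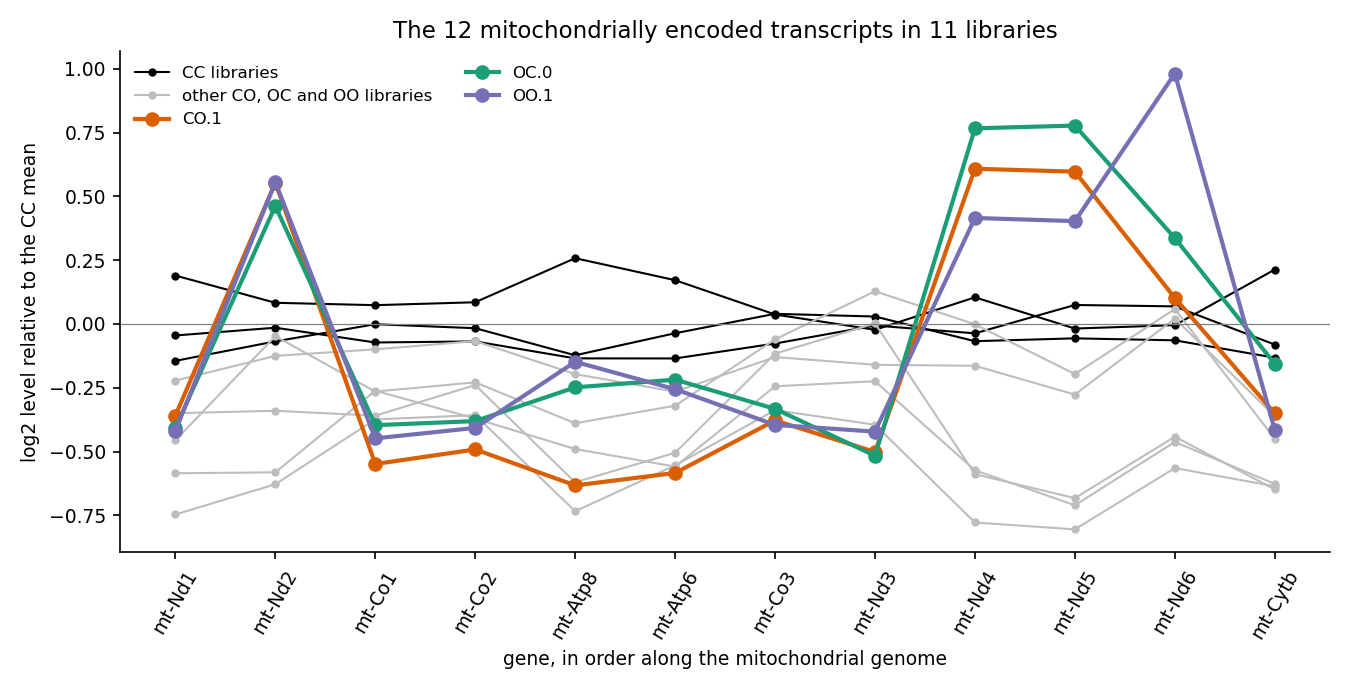
Log2 level relative to the CC mean (y axis) of the 12 mitochondrially encoded members, in their order along the mitochondrial genome (x axis). Each line joins the values of 1 library. CO.1, OC.0 and OO.1 (coloured) are the highest for mt-Nd2, mt-Nd4 and mt-Nd5 and the lowest for mt-Nd3.

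Counts of several mitochondrial genes are uncertain, since identical 50-base stretches occur in other annotated transcripts. Only exact matches were sought. The share of 50-base stretches of the transcript found in another gene was 100% for mt-Co2, 99.9% for mt-Co3, 99.5% for mt-Atp6, 98.0% for mt-Nd3, 62.2% for mt-Nd4 and 51.1% for mt-Co1. It was 8.19% for mt-Nd2, 7.61% for mt-Nd5 and 0% for mt-Nd1, mt-Nd6, mt-Cytb and mt-Atp8. The treatment of such reads by the authors was not given in the sources used here.

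The balance of the genomes was compared within each library, where the scaling factor cancels. For complexes I, III, IV and V the log2 ratio of summed mitochondrial to summed nuclear values was 1.93 ± 0.07 in CC (SD, n = 3), 1.91 ± 0.09 in CO (SD, n = 2), 1.74 ± 0.18 in OC and 1.87 ± 0.05 in OO (SD, n = 3). The difference of means was -0.02 in CO against CC and -0.19 in OC against CC. The small value in CO against CC joins shifts in opposite directions. Mean log2 ratios in CC and CO were 0.76 and 0.95 for complex I, and 0.65 and 0.58 for complex III. They were 4.21 and 4.11 for complex IV, and -0.50 and -0.63 for complex V. Taken as a median over members, the difference in CO against CC had the other sign. The OC libraries were spread most widely, with ratios of 1.93, 1.72 and 1.57, of which OC.0 lay among the CC values. Complex IV makes up most of the mitochondrial sum, and its log2 ratio ran from 3.90 to 4.26, and complex I alone ran from 0.16 in OC.2 to 1.21 in CO.1. For complex V the nuclear sum was the larger in every library (log2 ratio at most -0.36, in CC.0).

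Among related genes, from lists of assembly factors, electron carriers, the TCA cycle and regulators, the calls were few. Of 10 measured regulators of mitochondrial gene expression 1 passed in CO against CC (beside 1.79% of all genes), Esrra, the estrogen-related receptor alpha that activates respiratory genes. Esrra had values of 29.5, 26.2 and 33.3 in CC, 19.3 and 15.9 in CO, 22.8, 22.7 and 25.4 in OC and 19.7, 19.6 and 25.2 in OO, so that CC lay above all other libraries. Esrra fell by 0.73 in CO against CC (SE 0.16, limma adjusted p = 0.0441) and by 0.44 for the son's diet on average (limma adjusted p = 0.0443). Both calls sat close to the threshold: in CO against CC edgeR gave an adjusted p of 0.053, and leaving out any 1 library other than CC.1 or OO.2 gave a limma adjusted p of 0.0515 to 0.246, the latter without CO.1. The average call was lost without any 1 library other than CC.1, CO.0 and OO.2 (limma adjusted p up to 0.164, without CO.1). Of 20 measured genes of the TCA cycle and its entry, 17 were lower on average in CO than in CC, with a median of -0.29, and 1 passed (beside 1.79% of all genes). This was Idh2, the mitochondrial NADP-dependent isocitrate dehydrogenase, with 92.3, 91.3 and 106 in CC, 57.8 and 56.3 in CO, 103, 106 and 114 in OC and 68.3, 84.1 and 100 in OO. Idh2 fell by 0.75 (SE 0.15, limma adjusted p = 0.0353) and by 0.56 on average (limma adjusted p = 0.0115). The OC libraries of Idh2 lay among or above CC. The call in CO against CC was lost without CC.0, CC.2, CO.0, CO.1 or OC.2 (limma adjusted p from 0.0549 to 0.167), and the average call was kept in each fit without 1 library but lost in the fits without OC.0 and CO.1, without OC.1 and CO.1, and without CO.1, OC.0 and OO.1 (limma adjusted p = 0.0816, 0.0638 and 0.126). Pdk1, a kinase that switches off pyruvate dehydrogenase, fell by 0.50 for the son's diet on average (SE 0.11, limma adjusted p = 0.0318), from 82.7 ± 8.96 in CC (SD, n = 3) and 82.6 ± 9.65 in OC to 51.9 ± 11.4 in CO (SD, n = 2) and 65.7 ± 8.37 in OO. This call was lost without CC.0, CC.2, CO.1, OC.1, OC.2, OO.0 or OO.1 (limma adjusted p up to 0.13, without CO.1). Of 14 genes for coenzyme Q synthesis and the mobile carriers 1 passed for the son's diet on average, beside 3.96% of all genes: Coq10b, a coenzyme Q binding protein, rose by 0.62 (SE 0.13, limma adjusted p = 0.028), with 18.9, 25.8 and 18.8 in CC and 39.8 and 36.7 in CO. Mean values were 25.9 ± 5.55 in OC and 33.7 ± 4.86 in OO (SD, n = 3). The call for Coq10b was lost without CC.0, CC.2, CO.0, CO.1, OC.0 or OO.0 (limma adjusted p from 0.0554 to 0.0747).

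**Figure D5:**
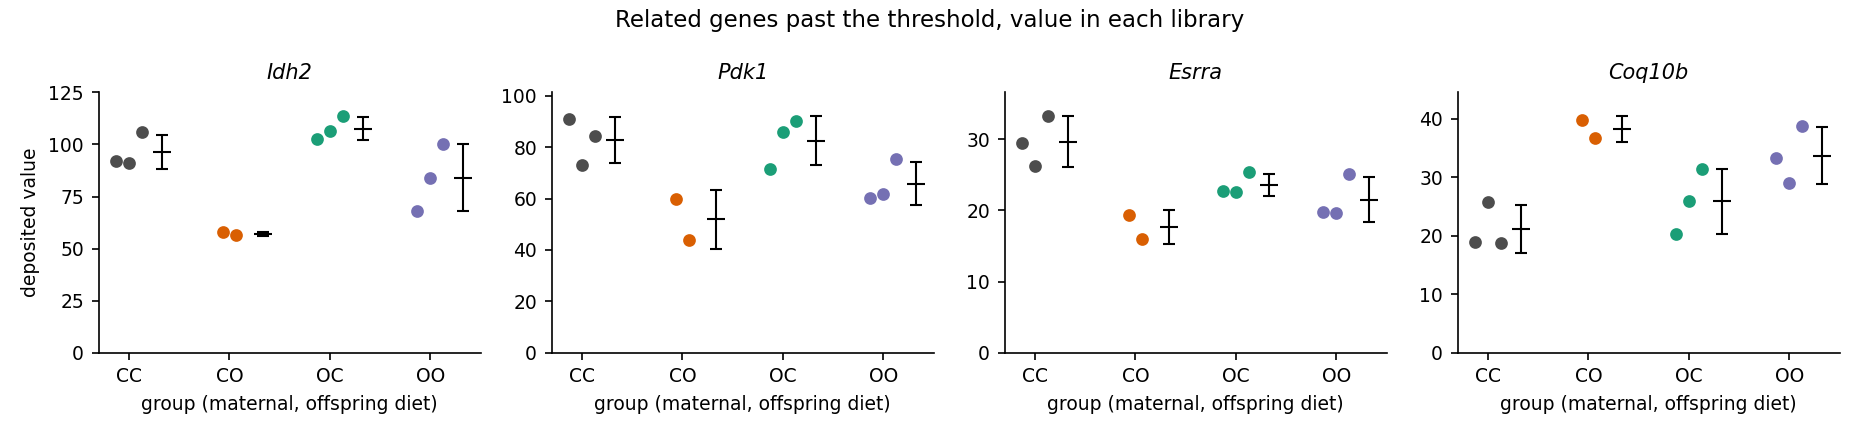
Deposited value (y axis) of the 4 related genes past the threshold, in each library by group (x axis), with the mean and SD of each group as black bars. Pdk1 and Idh2 are lowest on average in CO, with Idh2 at 57.8 and 56.3, Esrra is highest in CC, and Coq10b is highest in CO and OO on average.

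The medians of the assembly factors of complexes I to IV stood nearer 0 than those of the subunits, a difference that was not tested. The list of complex V factors also holds Atp5s, which is counted above among the members. In CO against CC the median log2 difference was -0.05 for 18 complex I factors, -0.11 for 4 complex II factors, -0.02 for 5 complex III factors, -0.01 for 22 complex IV factors and -0.30 for 5 complex V factors, and 0 passed in any comparison. Those with the smallest p for the son's diet on average included Dmac1 (0.41) and Foxred1 (-0.20) for complex I, Sdhaf3 (-0.29) and Sdhaf1 (-0.36) for complex II, Bcs1l (0.27) and Uqcc2 (-0.14) for complex III, Cox10 (-0.42) and Cox17 (0.30) for complex IV, and Fmc1 (-0.30) and Atpaf2 (-0.17) for complex V. Limma adjusted p-values of these genes were 0.126 or more. In the mitochondrial carrier and outer membrane list 11 of 12 genes were lower on average in CO than in CC (median -0.23) and 0 passed, with Slc25a3, the phosphate carrier that feeds complex V, at 254 ± 18.3 in CC (SD, n = 3) and 205 ± 12.7 in CO (SD, n = 2) and the channel Vdac2 at 101 ± 13.6 and 76.2 ± 9.22. In the list for mitochondrial transcription and RNA stability the median was -0.07 over 17 genes and 0 passed. Polg2, a subunit of the mitochondrial DNA polymerase, differed by -0.35 for the son's diet on average (limma adjusted p = 0.111). The other dehydrogenases that feed coenzyme Q (8 genes, median -0.24) and the uncoupling and supercomplex factors (5 genes, median 0.04) gave 0 calls. Among them Chdh, choline dehydrogenase, differed by 0.28 for the son's diet on average, Dhodh, of pyrimidine synthesis, by -0.36, Higd2a, a complex IV associated factor, by -0.10, and 1810058I24Rik by 0.62, none past the threshold. Lars2, mitochondrial leucyl-tRNA synthetase, belongs to the RNA list by its role, and its values are those given above. Whether all reads counted for Lars2 come from its own transcript was not tested. Lars2 was left out, with the mitochondrial genes, of the nuclear total used as an alternative scaling.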

How the data were processed

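The authors deposited 1 table of the series, a signal per gene and library. The values themselves show it to be counts over a factor of the library. Columns carry group names, per the file headers, and the genes have Ensembl identifiers, with symbols matched for 11965 of 12086. Bowtie 1.2.3 and mm8 are named in the submitters' processing notes; counter, annotation, strand setting and scaling were not given in the sources used here. Coordinates printed are RefSeq GRCm38.p6 and belong to the promoters alone.

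Tests were limma 3.58.1 (R 4.3.3) moderated tests with trend on log2(value + 0.5), 11 libraries, 1 mean per group, Benjamini-Hochberg over 12086 genes; differences understate changes of low genes. A gene needed a value of 1 in 3 libraries, which all had. The 7 comparisons were the 4 simple ones, both diet averages and the interaction. Count models (edgeR 4.0.16 quasi-likelihood, DESeq2 1.42.0, voom) were alternatives on recovered whole reads: 95.7% to 97.3% of values were whole multiples of 1 read (tolerance 0.01). In 6 of the 11 columns the lowest values include fractions of a read, and a step sought from those values alone did not recover whole reads. A floor of 3 reads lay between 0.1 and 0.829 and covers counting error only. Scripts were tested on simulated data. Other alternatives were pseudocounts of 0.1 and 2, median-of-ratios, quantile and nuclear-total scaling, a minimum value of 5, no filter, only the 2 groups compared, leaving out each library, and leaving out sets of libraries.

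The members and gene lists were chosen with earlier results of these data known. Named members are those called, all mitochondrially encoded ones, the measured members of an isoform list, and per complex the nuclear member with the highest mean and those with the smallest p (2 in CO against CC, 2 in OO against OC, 1 for the average maternal diet). From related lists, called genes are named, or the 2 with the smallest p for the average offspring diet. Ndufb4, Ndufv1 and Atp5a1 were named after their values were seen.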

Additional observations from a re-analysis of the deposited data

Results flagged for a closer look

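Sdhd was marked because the mother's diet went with opposite directions in every library: with sons on chow all OC libraries lay below all CC libraries (-0.24 on the log2 scale), and with sons on the obesogenic diet all OO libraries lay above all CO libraries (0.20). The interaction had an unadjusted limma p of 0.0197 and a limma adjusted p of 0.936, so the difference did not pass over all genes. Cox6c was marked in the same way for the mother's diet (-0.13 in OC against CC and 0.26 in OO against CO) and also for the son's diet (-0.32 in CO against CC and 0.0714 in OO against OC). Its interaction had an unadjusted limma p of 0.0338 and a limma adjusted p of 0.936. CO has 2 libraries, so groups separate by chance more readily there.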

How the results depend on the processing

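The count of members called was small and unsteady. In CO against CC, where limma called Sdhd, DESeq2 called 2 (Cyc1 and Sdhd), the fit with only the 2 groups 0, fits leaving out 1 library 0 to 1, and the fits without OC.0 and CO.1, without OC.1 and CO.1, and without CO.1, OC.0 and OO.1 (a set chosen after seeing the data) 0 each. The calls over all genes moved too, from 216 by limma to 456 by DESeq2, 92 with only the 2 groups, 19 to 233 without 1 library, and 16, 14 and 22 without those sets. For the average offspring diet DESeq2 called 2, fits leaving out 1 library 0 to 3 (0 without CC.0, CO.1 or OC.2; Ndufb6, Ndufv1 and Sdhd without CO.0), and those without the same 3 sets of libraries 0 each, where calls over all genes were 479 by limma, 770 by DESeq2, 253 to 483 without 1 library, and 134, 250 and 92 without the sets. Sdhd was called by edgeR and voom and under each scaling, pseudocount and filter. With 1 CO library left, its spread is taken from the other groups. The nuclear median in CO against CC ran from -0.39 to -0.12 over fits leaving out 1 library and was -0.12 in each fit without a set holding CO.1. In OO against CO it ran from -0.060 to 0.23, with -0.060 without OC.0 and CO.1 or OC.1 and CO.1. The mitochondrial median in OC against CC ran from -0.58 to -0.32, with -0.58 in each fit without OC.0. Taken as a median over members instead of sums, the mitochondrial to nuclear log2 ratio differed by 0.15 in CO against CC and -0.20 in OO against CO, against -0.02 and -0.0462 from sums. The cause of these changes was not tested. No paired analysis was possible because the columns carry no replicate number that the labels share. Groups of 2 or 3 libraries limit the precision of every value, and the depth that of genes with low values.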
